A study of Homo sapiens with 4 samples.

Results

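The peaks described here are the promoter-class peaks that carry the name of a small nucleolar RNA (snoRNA) or microRNA gene in a list of RNA enriched with YTHDF2. Members were the rows on chromosomes 1 to 22 and X whose feature was the promoter class and whose nearest transcription start site belonged to a SNORD, SNORA, SCARNA or numbered MIR gene. The rule gave 155 of the 14858 peaks in the list. Of these, 92 rows named 75 snoRNAs and 63 rows named 55 microRNA genes, and both kinds were described apart. The microRNA rows include 3 that were named for a long host gene of a microRNA, with a symbol ending in HG. The promoter class takes peaks within 3 kb of an annotated start, on either side.

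The study pulled down YTHDF2 from HCCLM3 cells, an established line of human hepatocellular carcinoma labelled as wild type, and sequenced the RNA that came with it (RNA immunoprecipitation sequencing, RIP-seq). The labels give 2 YTHDF2 RIP libraries and 2 input libraries of HCCLM3 cells, with no other treatment or genotype named. The deposited values were 1 list of peaks over all libraries, with no value per library, so no spread between replicates and no library depth could be given, and no control pulldown is among the samples. The fold of a peak is the authors' ratio of RIP over background at its summit, and the background is scaled input or a genome-wide level. Of 6 liver and epithelial markers, the keratins KRT8 and KRT18 had peaks (5 and 2), and ALB, APOA1, AFP and TTR had none, which in a peak list gives no level.

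Box C/D snoRNAs (SNORD) guide methylation of ribosomal RNA, box H/ACA snoRNAs (SNORA) guide pseudouridylation, and SCARNA genes encode related guides of Cajal bodies that act on spliceosomal RNAs. Most human snoRNAs and many microRNAs lie in introns of longer genes. snoRNAs are trimmed out of the spliced intron in the nucleus, and microRNA hairpins are cut from the primary transcript before export. YTHDF2 is a reader of N6-methyladenosine that acts mainly on RNA in the cytosol. A small RNA start inside an intron also counts as a transcription start site in a gene annotation, so a peak in an exon of the host can receive the name of the small RNA.

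The mature microRNAs below are shown because their genes gave the leading microRNA rows, the single row with its summit in the hairpin, or the pairs with a shared seed. The seed, bases 2 to 8, is in capitals, and sequences and positions are from RefSeq on GRCh38.p14. The arms of miR-25 and miR-363 share a seed, and so do those of miR-21 and miR-590.
hsa-miR-25-3p (chr7:100093571-100093592, minus strand): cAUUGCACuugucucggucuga
hsa-miR-363-3p (chrX:134169382-134169403, minus strand): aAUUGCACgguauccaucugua
hsa-miR-21-5p (chr17:59841273-59841294, plus strand): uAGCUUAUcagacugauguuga
hsa-miR-590-5p (chr7:74191213-74191234, plus strand): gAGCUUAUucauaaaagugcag
hsa-miR-616-5p (chr12:57519223-57519244, minus strand): aCUCAAAAcccuucagugacuu
hsa-miR-1282 (chr15:43793732-43793751, minus strand): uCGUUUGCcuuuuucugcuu
hsa-miR-1229-3p (chr5:179798278-179798300, minus strand): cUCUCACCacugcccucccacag
hsa-miR-675-5p (chr11:1996800-1996822, minus strand): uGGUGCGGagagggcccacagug
hsa-miR-7-5p (chr9:83969811-83969834, minus strand): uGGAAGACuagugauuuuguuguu
hsa-miR-663a (chr20:26208243-26208264, minus strand): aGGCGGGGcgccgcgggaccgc

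Among the snoRNA rows, 67 of 92 (72.8%) had a q of 0.01 or less in the authors' list, which is called passing below. Over all peaks of the list 37.3% passed, and over the 2294 other promoter peaks on the same chromosomes 56.1% passed. Among the microRNA rows 35 of 63 passed (55.6%), close to the share of the other promoter peaks. Of the snoRNA classes, 38 of 50 SNORD rows, 24 of 34 SNORA rows and 5 of 8 SCARNA rows passed. A −log10 q of 0 stood beside 7 snoRNA rows and 11 microRNA rows.

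The snoRNA rows had more fragments behind them than the other sets, at lower folds. At the summit they had a median of 111 RIP fragments (quartiles 48.5 and 145), the microRNA rows had 36, the other promoter peaks 48.5 and all peaks 12. The median background was 48.9 fragments for snoRNA rows, 16.3 for microRNA rows and 21.1 for the other promoter peaks. Median folds ran the other way, with 2.06 for snoRNA rows (95% interval of the median 1.89 to 2.38), 2.50 for microRNA rows (2.26 to 2.61), 2.34 for the other promoter peaks and 2.41 for all peaks. These intervals give the uncertainty of a median over peaks and not the spread between samples. They treat rows in the same host as independent.

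The shares of passing rows lay closer together once shallow peaks were left out. With 20 or more RIP fragments at the summit, 66 of 79 snoRNA rows passed (83.5%), 30 of 37 microRNA rows (81.1%) and 1151 of 1486 other promoter peaks (77.5%). Median folds in these subsets were 1.93 for snoRNA rows, 2.26 for microRNA rows and 2.07 for the other promoter peaks. Depth still differed, with medians of 128, 90 and 98 RIP fragments in that order. At most 4 fragments stood behind 3 snoRNA rows and 12 microRNA rows.

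**Figure D1:**
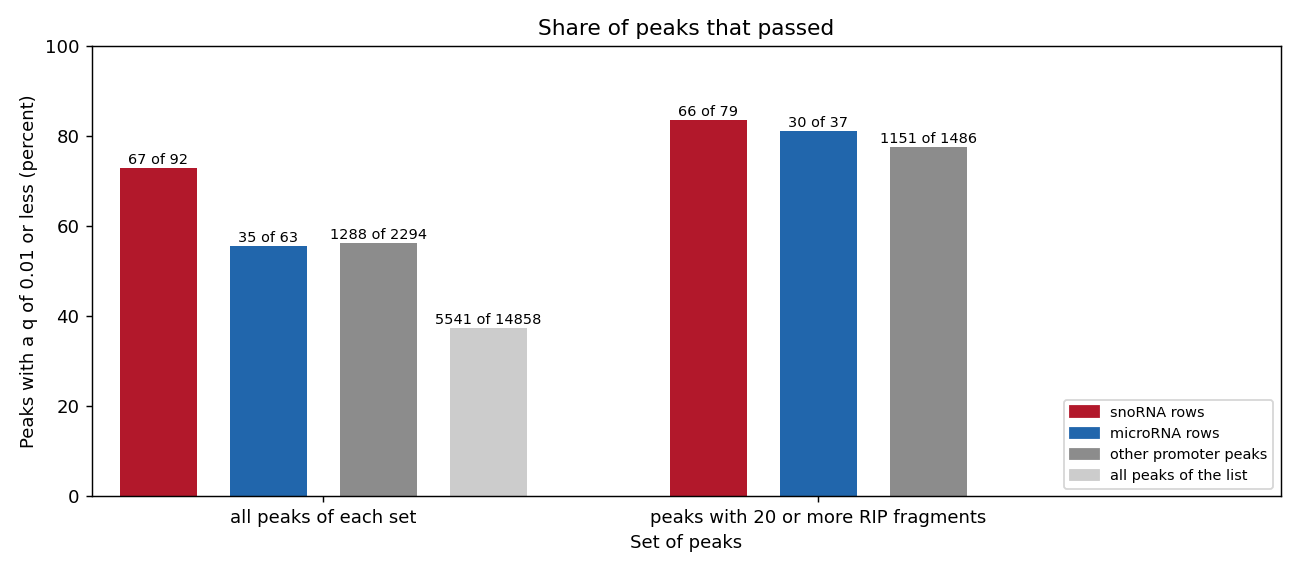
Share of peaks with a q of 0.01 or less (vertical axis, percent) in snoRNA rows, microRNA rows, the other promoter peaks and all peaks, on the left over each whole set and on the right over peaks with 20 or more RIP fragments at the summit. Counts are printed above the bars. The snoRNA rows lead on the left at 72.8%, and the 3 sets lie between 77.5% and 83.5% on the right.

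**Figure D2:**
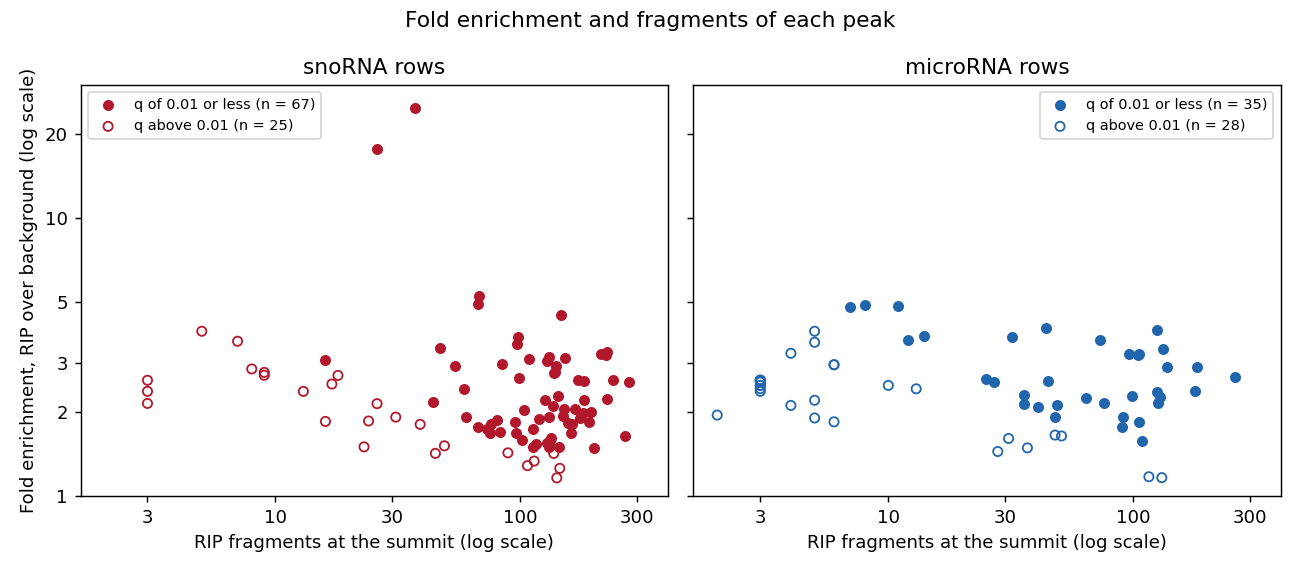
Fold enrichment of each snoRNA row (left) and microRNA row (right) against its RIP fragments at the summit, both on log axes, with filled points for a q of 0.01 or less and open points above it. The snoRNA points crowd around 100 fragments and more, the microRNA points reach down to 2 fragments, and the 2 highest points on the left are the SNORD52 rows at 24.8 and 17.6.

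Most summits lay beside the named small RNA rather than in it. The summit was inside the named small RNA in 2 of 92 snoRNA rows and in 1 of the 59 microRNA rows with a hairpin-sized span. In 3 further snoRNA rows it lay in a snoRNA other than the named one, so that 5 of 92 summits were in a snoRNA. Its median distance to the small RNA was 509 bases for snoRNA rows and 1190 bases for microRNA rows. Some part of the peak overlapped the small RNA in 28 snoRNA rows and 3 microRNA rows. The overlapping snoRNA peaks were wide, with a median of 639.5 bases against 403.5 for the 64 others, and their median fold was 1.89 against 2.16.

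The 3 rows with the summit inside the named small RNA had folds below 4. SCARNA9, a Cajal body guide RNA in an intron of CEP295, had 16 RIP fragments over a background of 4.50, a fold of 3.09. SNORD87, carried by the noncoding host gene SNHG6, had 73 RIP fragments over 41.5, a fold of 1.74. Both passed. MIR663A had 5 RIP fragments over the genome-wide background of 0.533, a fold of 3.91, and with a −log10 q of 1.92 it did not pass. The summits in another snoRNA were those of the SNORD16 row in SNORD18A (fold 1.59), of 1 SNORD57 row in SNORD56 (1.54) and of the SNORA63 row in SNORA4 (1.68), and all 3 passed.

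Box C/D and box H/ACA rows differed in the side on which the summit lay, counted along the strand of the small RNA. SNORD rows had 22 summits upstream and 27 downstream, and SNORA rows had 6 upstream and 28 downstream. The difference between the classes was not tested. Among microRNA rows 24 summits were upstream and 34 downstream. The largest distances, 3046 bases at a snoRNA and 3026 at a microRNA, follow from the limit of the promoter class.

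**Figure D3:**
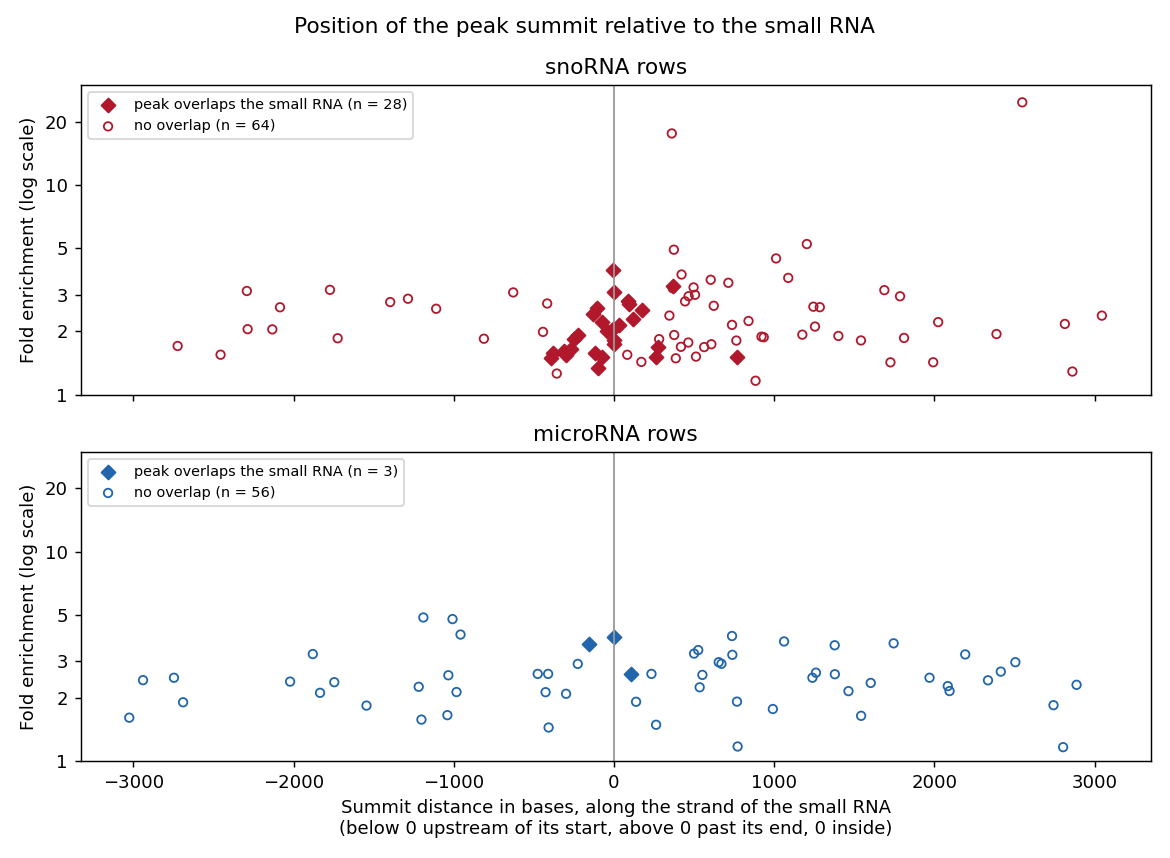
Distance from each small RNA to the peak summit in bases along its strand (horizontal axis, 0 inside the small RNA), against the fold enrichment on a log axis, for snoRNA rows (top) and the 59 microRNA rows with a hairpin-sized span (bottom). Diamonds mark peaks that overlap the small RNA, 28 at snoRNAs and 3 at microRNAs, and the open points are spread over the whole range to either side.

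Nearly all summits lay inside a longer gene. A host, meaning a gene other than a small RNA gene whose hg38 span held the summit, was found for 91 of 92 snoRNA rows and 62 of 63 microRNA rows, in 65 and 54 different hosts. The host was protein-coding for 74 snoRNA rows and 45 microRNA rows, and a long noncoding RNA for 15 and 14. For the MIR100HG and MIR193BHG rows the host was the named gene itself. It was on the strand of the snoRNA in 74 of the 79 rows where its strand was known, and on the strand of the microRNA in 43 of 54. The list does not give the strand of the fragments.

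Ribosomal protein genes were the largest group of snoRNA hosts, with 20 rows in 16 genes, of which 19 passed. The median of their folds was 2.0 (range 1.43 to 4.46) over a median of 131.5 RIP fragments. Of all snoRNA rows with 20 or more fragments 83.5% passed. RPLP2, an acidic protein of the ribosomal stalk, held the SNORA52 peak (chr11:812715-813110), with 146 RIP fragments over 32.0 of background, 4.46-fold (−log10 q 43.3). RPL10, a protein of the large subunit, held the SNORA70 peak (chrX:154400685-154401151), with 223 fragments over 68.7 and a fold of 3.22. By fold, RPL27A with SNORA3B at 3.74 and RPS3A with SNORD73A at 3.53 stood between those genes. The row that did not pass was 1 of 2 named for SNORA65 in RPL12, at 1.43, and the other had 1.85 and passed.

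Some ribosomal hosts held peaks of unequal fold. In RPL13 a SNORD68 row at chr16:89563053-89563442 had 152 RIP fragments over 47.6, a fold of 3.15, and the other SNORD68 row, which overlapped the snoRNA, had 144 over 95.3, a fold of 1.51. RPL13A had near-equal folds, 2.30 for SNORD34 and 2.24 for SNORD35A. RPL7A had 1.50 for SNORD36B and 1.58 for SNORD36C.

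Translation factor genes held 15 snoRNA rows in 7 genes, of which 12 passed, with folds of 1.26 to 2.78 and a median of 1.84. Their median was 149 RIP fragments, and 83.5% of all snoRNA rows with 20 or more fragments passed. EIF4G2, an initiation factor for cap-independent translation, held 5 peaks that all took the name of SNORD97, although their summits spread from 2388 bases downstream to 2287 bases upstream of it. Their folds were 1.90, 1.94, 1.99, 2.05 and 2.76, and all 5 passed. EEF1B2, an exchange factor of the elongation machinery, had 2.78 at SNORA41. EEF2, the elongation factor that moves the ribosome along, had 1.84 and 1.26 at SNORD37, and the second did not pass. EIF4A1, an initiation helicase, had 1.84 and 1.68 at SNORA67, and both passed. EIF4G1, the scaffold of the cap-binding complex, had 1.55 and 1.34 at SNORD66, of which the first passed.

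Chaperone and nucleolar protein genes passed in every row, with 6 of 6 and 4 of 4. These rows had medians of 183.5 and 210.5 RIP fragments, and 83.5% of all snoRNA rows with 20 or more fragments passed. HSPA8, the constitutive Hsp70 chaperone, carries the SNORD14 cluster, and its 3 peaks, named for SNORD14E in the first 2 and SNORD14C in the last, had 214, 195 and 268 RIP fragments over 65.3, 97.0 and 162 of background. Those are folds of 3.24, 2.0 and 1.65, so the peak with the most fragments had the lowest fold. NCL encodes nucleolin, and its 2 SNORD82 rows had 2.57 over 279 fragments, the most fragments of any member, and 2.58 over 182. NOP56, a core protein of box C/D particles, had 2.63 and 1.54 at SNORD57. The chaperonin subunit genes CCT6A and TCP1 had 3.16 at SNORA15, and 2.61 and 1.74 at SNORA20.

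The noncoding snoRNA host genes had the widest range of folds and, among the lists of snoRNA hosts, the smallest share of passing rows, 6 of 14, in 8 genes. Their median fold was 2.72 over a median of 34 RIP fragments. SNHG32, on chromosome 6, held the highest members. Its 2 SNORD52 rows had 37 RIP fragments and a fold of 24.8 (chr6:31839549-31839977, −log10 q 49.4), and 26 fragments and a fold of 17.6 (chr6:31837253-31837747, −log10 q 30.9). Its SNORD48 row had 3.91 over 5 fragments and did not pass.

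The background under all 3 SNHG32 rows was the genome-wide 0.533 fragments. Of 6462 peaks on the main chromosomes with 20 or more RIP fragments, the 2 SNORD52 rows were the only ones with that background. An alternative contig of the same chromosome held a further promoter-class SNORD48 row, with 3 fragments and a fold of 2.61. Both folds are therefore ratios to the genome-wide level and not to input counted at the peak, and they would be too high if input reads were missing there, which was not tested. Without the SNHG32 rows 65 snoRNA rows passed and the median fold was 2.05.

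Away from SNHG32, SNHG1 had 3.41 at SNORD22 over 47 fragments and passed. SNHG29 had 1.55 at SNORD49B and 1.49 at SNORD65, and both passed over 130 and 201 fragments. SNHG16, at SNORD1A, had 1.42 and 1.29, and SNHG12 had 2.78 at SNORD99 and 2.72 at SNORA61, of which none passed. SNHG14, the imprinted transcript that carries the SNORD116 cluster linked to Prader-Willi syndrome, had 2.86 and 2.72 over 8 and 9 fragments, and neither passed.

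**Figure D4:**
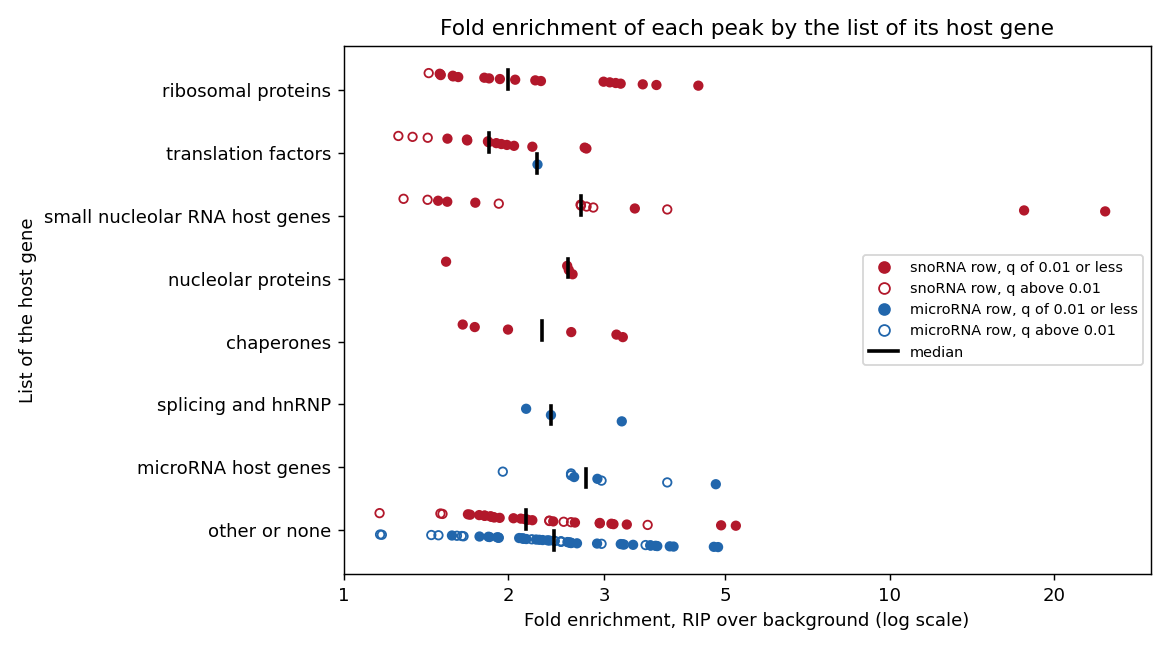
Fold enrichment of each row (horizontal log axis) by the list its host gene belongs to, with snoRNA rows in red, microRNA rows in blue, filled points for a q of 0.01 or less, and bars for medians. The ribosomal protein, translation factor, nucleolar and chaperone hosts of snoRNAs lie between 1.26 and 4.46, and the small nucleolar RNA host genes reach 24.8.

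The remaining 33 snoRNA rows, with 20 passing and a median fold of 2.15, included several whose summit lay just past the gene that carries the snoRNA. SNORA66 is carried by RPL5, and a peak 131 bases outside that gene had 68 fragments over 12.2 and a fold of 5.22, inside DIPK1A on the other strand. The SNORA10 peak (chr16:1961727-1962648), with 227 fragments over 68.1, 3.30-fold (−log10 q 46.0), lay 92 bases outside RPS2 and 9 bases from the end of NDUFB10, a subunit of respiratory complex I. For these peaks the neighbouring genes cannot be told apart. In all, 86 of 92 snoRNA summits lay in the carrying gene, of which 63 passed, and 6 lay outside it, of which 4 passed.

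The lowest snoRNA rows by −log10 q, with ties ordered by p, differed in depth. SNORD88B in the pseudogene C19orf48P had 141 RIP fragments over a background of 121, 1.16-fold, with a −log10 q of 0. SNORA25, whose summit fell in CEP295, had 23 over 15.0, a fold of 1.50, also with a −log10 q of 0. DANCR, a noncoding snoRNA host outside the lists used here, had 2.65 at SNORA26 and passed. GNL3, a nucleolar GTPase also known as nucleostemin, had 1.89 and 1.81 at SNORD69, of which the first passed.

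Leading microRNA rows lay in protein-coding hosts with many fragments. The MIR616 peak (chr12:57516433-57517113) was in DDIT3, a stress-induced transcription factor, with 260 RIP fragments over 96.6, 2.67-fold (−log10 q 37.5). Its summit was also 98 bases from the end of MARS1, the methionyl-tRNA synthetase. MIR25 lies with related microRNAs in an intron of MCM7, a subunit of the replicative helicase, and the peak in that gene (chr7:100092634-100092949) had 125 fragments over 30.9, 3.96-fold (−log10 q 32.2). A second MIR25 row, 771 bases outside MCM7 and inside COPS6, had 125 fragments over 52.3 and a fold of 2.36. In the first MIR25 row the summit lay 737 bases past the hairpin, so the peak does not cover the microRNA.

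Other microRNA hosts with high −log10 q had diverse roles. SERF2 held the MIR1282 peak (chr15:43793875-43794207) at 2.91 over 182 fragments, with the microRNA on the other strand. MGAT4B, a Golgi glycosyltransferase, held the MIR1229 peak (chr5:179797481-179797882) at 3.39 over 133. ACADVL, an enzyme of mitochondrial fatty acid oxidation on the strand opposite MIR324, had 3.24 over 96, at 7 bases from its annotated end. FAM89A had 3.22 at MIR1182, the transcription factor gene FOXP4 had 3.65 at MIR4641, and WWP2, the ubiquitin ligase gene that carries MIR140, had 3.73 over 32. Hosts with several passing microRNA rows at lower folds were FAM50A, with 1.92 and 1.84 at MIR6858, PIGT, with 2.25 and 2.14 at MIR6812, and LOC128966597, with 2.16 and 1.77 at MIR4436B2. LOC105373347 held 3 rows, of which MIR510, at 2.58 over 27, passed.

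Splicing and hnRNP hosts passed in 3 of 3 rows, all with 20 or more RIP fragments, a depth at which 81.1% of microRNA rows passed. HNRNPK, which binds C-rich RNA and carries MIR7-1, had 2.40 over 179 fragments and 2.16 over 76. SRSF2, a splicing factor that controls its own transcripts, had 3.23 over 106 at MIR636. EIF4H, a helper of the initiation helicase, carries MIR590 and had 2.26 over 129, and passed.

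Noncoding microRNA host genes had 3 of 8 rows passing, over a median of 5.5 fragments. H19, an imprinted RNA whose first exon holds MIR675, had 138 RIP fragments over 46.7, 2.92-fold (−log10 q 22.8, chr11:1995844-1996361), and the summit lay 671 bases past the hairpin. MIR193BHG passed, and MIR1915HG had 2.64 over 25 and passed. MIR222HG, at MIR221, had 2.61 in both of its rows over 3 fragments each, and neither passed.

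Of the microRNA rows that passed, the 3 highest folds rested on few fragments. MIR196B, in the HOXA10-HOXA9 readthrough, had 4.85 over 8 fragments, MIR193BHG had 4.80 over 11 and MIR1207, in the noncoding gene PVT1, had 4.76 over 7. Counting error is large at such depths, and no sample value exists to set it against. The next folds were of mixed depth, with MIR4436B2 at 4.02 over 44 in MALL, MIR25 at 3.96 over 125 in MCM7, MIR194-2HG at 3.75 over 14 in ATG2A and MIR1184-1 at 3.64 over 12 in F8A3. The genes given are those that held the summit. ATG2A does not hold MIR194-2HG, and RefSeq does not place MIR4436B2 or MIR1184-1 at the spans listed for these rows.

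MIR21, the oncogenic microRNA much studied in liver cancer, gave no passing peak. Its row lay in VMP1, 1040 bases before the hairpin, with 48 RIP fragments over 28.6, 1.66-fold (−log10 q 0.884). Its seed partner miR-590 lay in the EIF4H row described above, which passed. Of the other seed pair, the miR-25 rows passed, and the miR-363 row, 2107 bases outside its carrying gene, had 2.43 over 13 fragments and did not pass. The lowest microRNA rows were MIR126, at 1.17 over 131 fragments, and MIR3064 in DDX5, an RNA helicase, at 1.18 over 116, both with a −log10 q of 0. The MIR126 summit lay in AGPAT2, on the other strand, and 812 bases outside EGFL7, which carries that microRNA.

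Rows whose summit lay in a gene carrying the microRNA on its own strand numbered 44, of which 26 passed over a median of 42.5 fragments. A further 4 lay outside the carrying gene, of which 2 passed. For 15 rows no carrying gene was found, and 7 of them passed over a median of 11 fragments. The 15 include the 3 rows named for MIR100HG, MIR193BHG and MIR194-2HG, where the named gene itself could not count as the carrier. Several named spans are uncertain, since the MIR548N span in the list covers 195970 bases on chromosome 1 while RefSeq places that microRNA on chromosome 7. In the RefSeq table the same span was found for 87 of 92 snoRNA rows and 53 of 63 microRNA rows.

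Peaks near the annotated end of a gene had higher median folds, and the rule did not use that position. The window of 250 bases to either side of the end was chosen after the values were seen, and the comparison carries no test. The end is that of the whole RefSeq span, and 9 snoRNA and 8 microRNA rows had no gene of known strand. The window held 17 of 92 snoRNA summits (18.5%), 16 of 63 microRNA summits (25.4%) and 392 of 2294 other promoter summits (17.1%). For snoRNA rows the median fold was 2.78 inside the window and 1.92 farther away, with 13 of 17 and 46 of 66 passing. For microRNA rows it was 2.64 and 2.40, with 15 of 16 and 16 of 39 passing.

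The other promoter peaks showed the same order, with median folds of 2.56 inside the window and 2.23 farther away, and 318 of 392 against 912 of 1755 passing. Depth moved with position among microRNA rows, which had a median of 83.5 fragments inside the window and 12 farther away, and its part in the difference was not tested. Among snoRNA rows the medians were 84 and 108. Within single hosts the order varied. In 9 hosts with 2 or more members, some summits had the host's own end as the nearest gene end, within 250 bases. Other summits of these hosts did not. The highest fold was near the end in 5 of the 9 hosts and farther away in 4. The 5 were HSPA8 (91 bases from the end), NOP56 (138 bases), SNHG32 (73 bases), FAM50A (130 bases) and PIGT (133 bases). The 4 were RPL13A (208 bases), EIF4A2 (155 bases), HNRNPK (201 bases) and LOC105373347 (112 bases). SNHG12 and GNL3 also had a summit close to their own end. They were not counted, because the end of a neighbouring gene lay nearer to that summit. SNHG12 had 2.78 at the summit nearer its end and 2.72 farther away, and GNL3 had 1.81 and 1.89.

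Host spans often held further peaks that did not bear a small RNA promoter name. Every peak with its summit in the span was counted, whatever gene or strand it came from. Some were named for another gene, such as UBE3A in the span of SNHG14, TRIM32 in ASTN2 and NTAN1 in PDXDC1. Which gene such peaks belong to was not tested. Of 65 snoRNA hosts, 21 held 2 or more members, 51 held a passing member and 27 held other peaks. In 10 of those 27 the highest fold was that of a member, and in 17 that of another peak. For the 54 microRNA hosts, 30 held other peaks, and the member was highest in 13 and another peak in 17. A tie in ABCF1, at 2.61, was counted for the other peak. Depth and q were not used in these comparisons, and some of the higher other peaks were shallow and did not pass. The 132 other peaks in hosts had a median fold of 2.42, and 57 passed (43.2%), near the 37.3% of all peaks. Of these, 15 of 22 in 3' UTRs passed (68.2%) and 16 of 27 in exons (59.3%), against 3 of 44 in introns (6.82%). Over the whole list 50.9% of 3' UTR peaks, 45.5% of exon peaks and 7.26% of intron peaks passed.

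**Figure D5:**
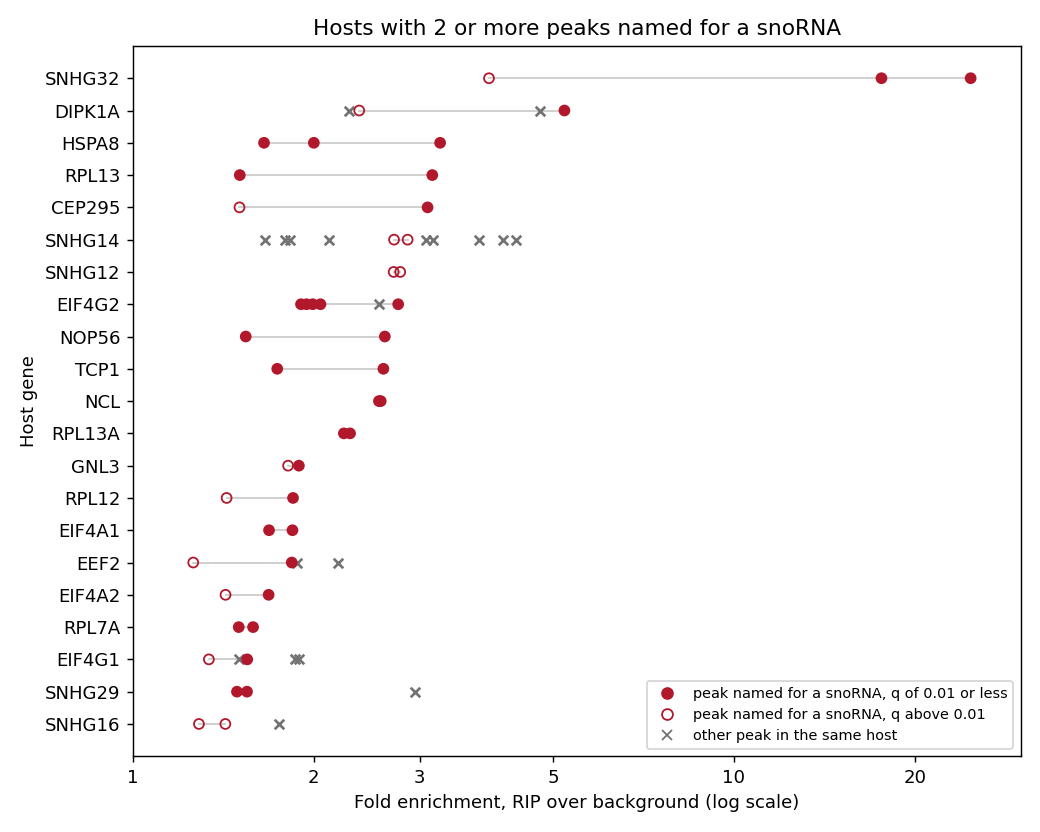
Fold enrichment (horizontal log axis) of all peaks in the 21 genes that held 2 or more peaks named for a snoRNA, ordered by their highest such peak. Red points are peaks named for a snoRNA, filled for a q of 0.01 or less. Grey crosses are other peaks with the summit in the same gene span, whatever gene they were named for. SNHG32 stands highest at 24.8, EIF4G2 holds 5 red points between 1.90 and 2.76, and SNHG14 has several crosses above its red points.

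A minority of snoRNA hosts had starts of a known kind. Ribosomal protein and translation factor genes are known for transcripts that begin with a C and a run of pyrimidines (5' terminal oligopyrimidine, TOP), through which their translation follows mTOR signalling. A start was counted as TOP-like where the RefSeq start base on the gene's strand was C and the 4 bases after it were each C or T. It was found in 17 of 51 snoRNA hosts with an entry in the RefSeq promoter table (33.3%), in 3 of 47 microRNA hosts (6.38%) and in 1404 of 27305 genes in all (5.14%). Of the ribosomal protein hosts 10 of 11 with an entry began this way, and of the translation factor hosts of either kind 3 of 7.

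For 4 noncoding snoRNA hosts the first 50 bases from a RefSeq start are shown because they differ in this feature. The opening run of C or T is in capitals where it is TOP-like. The SNHG12 start lies inside its gene span, which on this strand begins at 28582983. SNHG12 and SNHG32 began with such runs of 11 and 6 bases, and SNHG1 and SNHG8 with runs too short to count. No member peak covered any of these starts, so the letters describe the hosts and not the enriched stretches.
SNHG12 (chr1:28581824-28581873, minus strand): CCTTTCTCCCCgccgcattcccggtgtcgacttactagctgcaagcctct
SNHG32 (chr6:31834916-31834965, plus strand): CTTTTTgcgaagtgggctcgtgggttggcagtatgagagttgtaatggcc
SNHG1 (chr11:62855836-62855885, minus strand): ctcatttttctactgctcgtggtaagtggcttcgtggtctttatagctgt
SNHG8 (chr4:118278762-118278811, plus strand): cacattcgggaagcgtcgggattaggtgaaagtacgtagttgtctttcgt

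By distance to the small RNA start, 46 of 62 snoRNA rows passed within 1 kb, 13 of 19 at 1 to 2 kb and 8 of 11 at 2 to 3 kb (74.2%, 68.4% and 72.7%). For microRNA rows these were 21 of 35, 9 of 15 and 5 of 13 (60%, 60% and 38.5%). The other promoter peaks had 60.0%, 53.0% and 50.9%, and no difference between these bins was tested. Around the limit of 3 kb, SNORA66 at 2925 bases with a fold of 2.38 and MIR635 at 2911 bases with 2.31 were members. MIR1226 at 3159 bases with 1.58 and SCARNA2 at -3183 bases (upstream) with 1.68 were not, and both were annotated as 3' UTR peaks. In the whole list 518 rows bore the name of a snoRNA or microRNA gene, and 344 on the main chromosomes lay outside the promoter class.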

How the data were processed

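The labels describe 2 YTHDF2 RIP and 2 input libraries, made from total RNA with a low-input stranded kit. Per the submitters' processing notes, HISAT2, MACS2 and the hg38 build were used. Versions, options and the way libraries were combined were not given in the sources used here. Per the file headers, the authors deposited for each peak a fold enrichment (ratio), −log10 p and −log10 q, a score, a width, a summit offset, a feature and the nearest start site. The deposited score was not used. Nothing says whether libraries came from separate cultures.

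RIP fragments k and background b were solved from fold = (k + 1) / (b + 1) and the Poisson p, to a largest residual of 0.000189, and on 2000 simulated peaks 100% were recovered. Sequencing depth is unknown. A peak passed with a −log10 q of at least 2. Hosts came from RefSeq gene spans (GRCh38.p14), those holding the small RNA and on its strand first, then protein-coding, then the shortest, and 10 snoRNA and 6 microRNA summits lay in several genes. Strands came from the promoter table or, for genes without an entry, from the deposited annotation of peaks named for them. They are unknown for genes with neither. Medians have a 95% order-statistic interval.

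Members, host lists and settings were chosen with earlier results of these data known. Genes were named by −log10 q (10 highest and 2 lowest of each kind), fold (10 highest passing), a passing summit inside the small RNA, or 2 or more members in a host. An item that this rule takes is not reported here. Ties at a −log10 q of 0 were ordered by p. MIR21, MIR590, MIR363, MIR663A, EIF4H, SRSF2, DANCR, H19, MIR1915HG, SNHG8, SNHG12, EEF1B2 and the peaks around the 3 kb limit were added as list examples or after their values were seen. Alternatives covered the q threshold, distance, contigs, width, fragments, overlap and host. Python 3.11.15, pandas 2.3.3, scipy 1.17.1 and numpy 2.4.6 were used.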

Additional observations from a re-analysis of the deposited data

How the results depend on the processing

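Of 33 alternatives, 26 left the value within 1.5 times the count, or within the interval of the median, and 7 moved it. The count of snoRNA summits inside the small RNA, 2, became 28 with any overlap of the peak and 7 within 50 bases. The microRNA count, 1, became 3 with any overlap and 0 among passing peaks. Passing microRNA rows, 35, became 21 at a −log10 q of at least 5 and 21 within 1 kb, where fewer rows enter. Members with a host, 153 of 155, became 100 among passing peaks, where only the 67 snoRNA and 35 microRNA rows that passed enter. The median fold of snoRNA rows ranged from 1.93 to 2.22 and that of microRNA rows from 2.26 to 2.61. After seeing the data, leaving out SNHG32 gave 65 passing snoRNA rows, and leaving out spans that RefSeq does not place there gave 32 passing microRNA rows. No paired analysis was possible because the list holds no value per library. Folds over few fragments carry a large counting error, and fragments from PCR without molecular identifiers are not independent molecules.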
